A study of Mus musculus with 6 samples.

Results

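The genes described here are those whose mRNA level moved to the same side of the parental line in both of 2 CT26 clones that resist immune checkpoint blockade (ICB). A gene was a member when its size-factor-normalised count in all 4 clone libraries lay above, or in all 4 lay below, both parental libraries. Of 53801 genes listed, 53706 were found in the annotation and 12623 of those were pseudogenes, which were left out, so that 41083 genes remained. At least 1 count was present for 18617 of them, and 4547 were members, 2161 above and 2386 below the parental line. Tests and shares used the 11628 genes with a mean normalised count of at least 10, which kept 3827 members: 1849 above (15.9%) and 1978 below (17.0%). Members above the parental line were thus 48.3% of those on 1 side, but 65.1% when sides were read from TPM (2228 above, 1197 below), a scale on which fragment length enters. The rule uses only the side on which a library falls, so that a gene just inside it, Hagh, had its closest clone and parental libraries at the same rounded value of 918.4, and Srek1ip1 just outside it had 398.4 in a parental library and 398.5 in a B64 library.

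CT26 is a colon carcinoma line of BALB/c mice. The parental line was the barcoded CT26 population recovered from established tumours, a mixture of many clones, while B04 and B64 were each grown from a single cell of such a tumour and carried barcodes that anti-PD1 and anti-CTLA4 had enriched. The sample titles describe the material as tumour derived, whereas per the study's methods the RNA came from lines grown in RPMI medium, and the labels list no treatment. Each line had 2 libraries, A and B, with poly(A)-selected mRNA. The 4 clone libraries therefore come from only 2 clones, each line is 1 clone, and a change shared by both cannot be told apart from what single-cell cloning itself does to a mixed line. The study's methods mention duplicates without making clear whether A and B are separate cultures. P-values therefore measure the spread between libraries, which may be technical.

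Library totals were 19409204 to 23472012 expected counts. Fragment length did not follow the lines: the difference between RSEM gene length and effective length was 271.6 to 277.2 bases in the parental libraries and B04 A, and 220.8 to 246.1 bases in B04 B and both B64 libraries. For this reason the log2 ratio of B04 A over the parental mean, all long-fragment libraries, is given for the first 100 Mb of chromosome 1. For some genes and lists a fit with a term for fragment length is given instead. Ptprc, the pan-leukocyte marker, did not exceed 0.01 TPM in any library, and endothelial markers summed to at most 0.2 TPM. The 12 leukocyte markers together reached 10.26 to 12.17 TPM outside B64 and 39.74 and 36.11 TPM within it, nearly all of it Cd68, and their part in the B64 values was not tested. The 8 fibroblast markers summed to 27.46 to 32.61 TPM outside B64 and to 10.33 and 12.13 TPM within it, mostly through Col1a1 and Col3a1. Of the 10 intestinal epithelium markers, Epcam and Cdh1 did not exceed 0.06 TPM and Vil1 was listed at 0, whereas Krt18 was at 12.31 to 22.44 TPM, Krt20 at 9.01 to 9.62 TPM outside B64 and 24.42 and 25.21 TPM within it, and the mesenchymal marker Vim at 2041.67 TPM or more. The list summed to 22.41 to 48.23 TPM, so some but not all markers of colon epithelium were present.

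Several pathways recur below. MHC class I presentation cuts proteins with the proteasome, carries the peptides into the endoplasmic reticulum with the TAP transporter and loads them on class I molecules for T cells to read. NRF2 is a transcription factor that induces glutathione and detoxifying enzymes under oxidative stress, and SREBP2 induces the enzymes of cholesterol synthesis when sterols are low. TGF-beta and BMP ligands act through SMAD proteins, which induce inhibitors of their own pathway such as Smad7 and Pmepa1, and for BMP the Id genes.

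Promoters of 4 members are shown to place these genes, each as RefSeq gives it on GRCm38.p6 and reading toward the transcription start, with the letters of the motif named for each in capitals and any other motif left in lower case. Hmgcs1 is shown because it alone, among 5 called cholesterol genes with a window, held the letters TCACCCCAC of a sterol response core (chr13:119690101-119690350, plus strand). Ly6c1 is shown for a gene of the Ly6 cluster, with a CCAAT box (chr15:75048838-75049087, minus strand). Igf2r is shown for a gene with one of the largest falls, with 3 GC boxes, GGGCGG (chr17:12769707-12769956, minus strand). Ganab is shown for the chromosome 19 block, with 2 CCAAT boxes and 1 ETS motif, CCGGAAG, in the 168 bases between the last exon of Ints5 and its own start (chr19:8897889-8898056, plus strand).
Hmgcs1: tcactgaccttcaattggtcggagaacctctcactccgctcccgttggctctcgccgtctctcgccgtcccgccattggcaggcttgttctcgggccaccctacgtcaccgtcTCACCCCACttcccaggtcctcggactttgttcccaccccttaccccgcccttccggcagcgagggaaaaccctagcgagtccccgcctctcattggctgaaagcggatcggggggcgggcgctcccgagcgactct
Ly6c1: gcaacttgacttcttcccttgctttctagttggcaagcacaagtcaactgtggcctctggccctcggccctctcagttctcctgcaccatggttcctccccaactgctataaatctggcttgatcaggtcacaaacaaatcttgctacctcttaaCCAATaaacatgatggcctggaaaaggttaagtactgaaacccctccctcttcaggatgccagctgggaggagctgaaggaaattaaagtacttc
Igf2r: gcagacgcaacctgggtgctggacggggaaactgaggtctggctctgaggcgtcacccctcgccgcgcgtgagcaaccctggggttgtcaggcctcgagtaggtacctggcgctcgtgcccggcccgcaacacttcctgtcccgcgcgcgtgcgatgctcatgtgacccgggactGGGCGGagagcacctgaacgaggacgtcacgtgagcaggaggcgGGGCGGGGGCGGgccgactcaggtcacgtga
Ganab: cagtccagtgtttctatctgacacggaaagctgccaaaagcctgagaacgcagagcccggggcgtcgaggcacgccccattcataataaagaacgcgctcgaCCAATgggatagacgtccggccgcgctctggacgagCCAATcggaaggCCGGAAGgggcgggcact

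Windows of 250 bases were found for 8986 of 11622 described gene symbols, and motifs were searched on both strands. A gene with several windows counted once, if any of them held the motif, so the shares are of genes. The sterol core was found for 0.701% of all these genes. The ETS motif was found for 17.3% of all these genes, for 8.93% of those called higher in the clones and for 15.7% of those called lower. CCAAT boxes were found for 41.5%, 43.2% and 34.8% of the same groups, GC boxes for 65.4%, 58.8% and 67.4%, and TATAAA for 7.51%, 8.65% and 12%. The core letters of the antioxidant response element, TGACNNNGC, were found for 14.0% of all these genes and for 1 of 9 called NRF2 targets with a window. The interferon-gamma element TTCNNNGAA was found for 6.96% of all and for 1 of 6 called class I genes with a window. These shares describe letters in a short window and were not tested.

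To ask which shared changes were larger than the spread between libraries, the 4 clone libraries were tested against the 2 parental libraries with DESeq2. In this pooled test differences between the clones count as spread. DESeq2 calls below are of the pooled test unless another fit is named, such as one with the lines as groups. Of 13727 genes tested, 852 (6.21%) had an adjusted p under 0.05. Among the 11628 described genes, 803 were called and lay on 1 side, 462 higher in the clones (3.97%) and 341 lower (2.93%), and these are the background shares for every list below. Because the rule and the test use the same values, the call of a member is a description of size and not independent support. A change of at least 2-fold was seen for 117 of the higher and 74 of the lower genes. The edgeR quasi-likelihood test called 342 of the 803, 172 higher and 170 lower. Without parental A 185 of the 803 were still called and without parental B 208, while leaving out a clone library kept 557 to 668, so the calls rest on both parental libraries. Counts were also simulated for 4 libraries against 2, with no difference between the clones. On them both tests made more false calls than their threshold allows, DESeq2 more than edgeR. Each count of DESeq2 calls below carries this limit. The clones do differ in these data, so the simulation cannot give the share of false calls here. The adjusted p changed side between Srp54b, a signal recognition particle subunit with a near-identical paralogue (0.0499), and the kinase gene Mapk3 (0.0502).

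The genes that rose most in both clones included Serping1, Ly6a, Cytip, Aldh3a1 and Gsta1. Serping1, the C1 inhibitor of the complement and contact systems, had normalised counts of 26.7 and 28.1 in parental A and B, against 207.9 and 217.8 for B04 and 165.4 and 218.7 for B64. No clone library came near the parental pair, and the log2 fold change was 2.89 ± 0.28 (SE; DESeq2 adjusted p = 3.54e-22, edgeR adjusted p = 0.00148). In bulk RNA, fewer cells with a transcript and less of it per cell cannot be told apart, which matters for a mixed parental line. Ly6a (Sca-1), a GPI-anchored surface protein, was at 185.1 and 182.4 in the parental line, 1006.9 and 841.8 in B04 and 877.8 and 781.2 in B64, a log2 fold change of 2.26 ± 0.16 (DESeq2 adjusted p = 2.14e-44). The 4 clone libraries overlapped between lines and stood clear of the parental ones. Cytip encodes a protein that binds cytohesin in leukocytes. Its counts went from 53.4 and 47.7 to 288.2 and 252.4 in B04 and 216.3 and 211.3 in B64 (log2 fold change 2.26 ± 0.24, DESeq2 adjusted p = 1.79e-17). Ifitm1, an interferon-induced antiviral membrane protein, went from 684.9 and 699.6 to 1864.2 and 1961.4 in B04 and 1840.6 and 1872.5 in B64, nearly the same in both clones (log2 fold change 1.44 ± 0.09, DESeq2 adjusted p = 1.54e-50).

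Aldh3a1, an aldehyde dehydrogenase that clears aldehydes from lipid peroxidation, was at 253.8 and 259.1 in the parental line, 1111.8 and 1134.9 in B04 and 922.0 and 1046.1 in B64, a log2 fold change of 2.04 ± 0.14 (DESeq2 adjusted p = 3.17e-45). Gsta1, a glutathione S-transferase whose reads can be shared with its paralogues, was at 57.2 and 44.0, 197.9 and 188.3, and 219.7 and 186.1 in the same order (log2 fold change 1.97 ± 0.24, DESeq2 adjusted p = 3.1e-14). For both genes every clone library lay far above the higher parental one. Ntn5, a netrin family member, went from 67.7 and 48.6 to between 174.4 and 227.0 in the clone libraries (log2 fold change 1.81 ± 0.24), and Upk3bl, a uroplakin-like membrane protein, from 43.9 and 45.8 to between 99.7 and 185.3 (1.70 ± 0.31).

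Other leading genes rose in both clones by unequal amounts. Ly6c1, a Ly6 surface protein close in sequence to Ly6c2, was at 74.4 and 75.8 in the parental line, 607.4 and 571.0 in B04 and 252.6 and 213.4 in B64 (log2 fold change 2.45 ± 0.41, DESeq2 adjusted p = 2.7e-07, edgeR adjusted p = 0.0571). Fetub, a liver-secreted cystatin-family protein, was at 33.4 and 37.4, 104.9 and 103.8, and 156.3 and 181.9 (1.95 ± 0.34, DESeq2 adjusted p = 1.89e-06). B04 was thus the higher clone for Ly6c1 and B64 had the higher libraries for Fetub. The call of Fetub was lost in a fit with a term for fragment length. Pax5, the B-cell lineage factor, was at 10.5 and 5.6, 308.3 and 293.1, and 24.9 and 22.1 (4.33 ± 1.36, DESeq2 adjusted p = 0.0283, edgeR adjusted p = 0.176). Its fold change is that of B04, B64 lay just above the parental libraries, and the call was lost without parental A, parental B, B04 A or B04 B.

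Among the genes that fell most, Tmsb4x, the actin-monomer binder thymosin beta 4 with many processed copies in the genome, was at 1718.1 and 1895.8 in the parental line, 281.8 and 285.0 in B04 and 334.1 and 335.4 in B64. Its log2 fold change was -2.55 ± 0.13 (DESeq2 adjusted p = 4.13e-78, edgeR adjusted p = 0.000334). Igf2r, the imprinted receptor that carries lysosomal enzymes and clears IGF2, was at 1148.6 and 1013.8, 218.0 and 194.4, and 252.6 and 211.3 (-2.30 ± 0.15, DESeq2 adjusted p = 8.41e-49). The clone libraries overlapped between lines for Igf2r, and all 4 lay far under the parental pair for both genes. Of 9 measured imprinted genes, only Igf2r was called, and its promoter is printed above.

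Other genes that fell most included Pmepa1, Tiam1, Fgfr1, Marcksl1, Il1rap and Adam12. Pmepa1, a SMAD-induced inhibitor of TGF-beta signalling, was at 353.9 and 342.3 in the parental line, 82.1 and 95.7 in B04 and 64.6 and 88.3 in B64 (log2 fold change -2.07 ± 0.21, DESeq2 adjusted p = 1.4e-19). Tiam1, an exchange factor that activates RAC1, went from 330.1 and 304.0 to between 92.1 and 123.0 in the clones (-1.51 ± 0.20, DESeq2 adjusted p = 2.08e-11). Fgfr1, a fibroblast growth factor receptor, was at 574.3 and 629.4, 242.6 and 239.2, and 159.7 and 160.9 (-1.58 ± 0.22, DESeq2 adjusted p = 2.75e-10), lowest in B64. Adam12, a membrane metalloprotease, went from 280.5 and 281.5 to between 101.2 and 131.4 (-1.32 ± 0.20, DESeq2 adjusted p = 5.45e-09), and Marcksl1, a MARCKS-family protein that binds actin, from 238.5 and 262.8 to between 85.5 and 106.2 (-1.34 ± 0.20). Il1rap, the shared chain of IL-1 family receptors, was at 232.8 and 218.8, 97.6 and 94.7, and 37.4 and 33.6 (-1.77 ± 0.44, DESeq2 adjusted p = 0.00207, edgeR adjusted p = 0.0826), and its call was lost without either parental library. Morc4, Stau2, Kifc3 and Ganab, which is described with its neighbours, made up the rest of the 12.

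**Figure D1:**
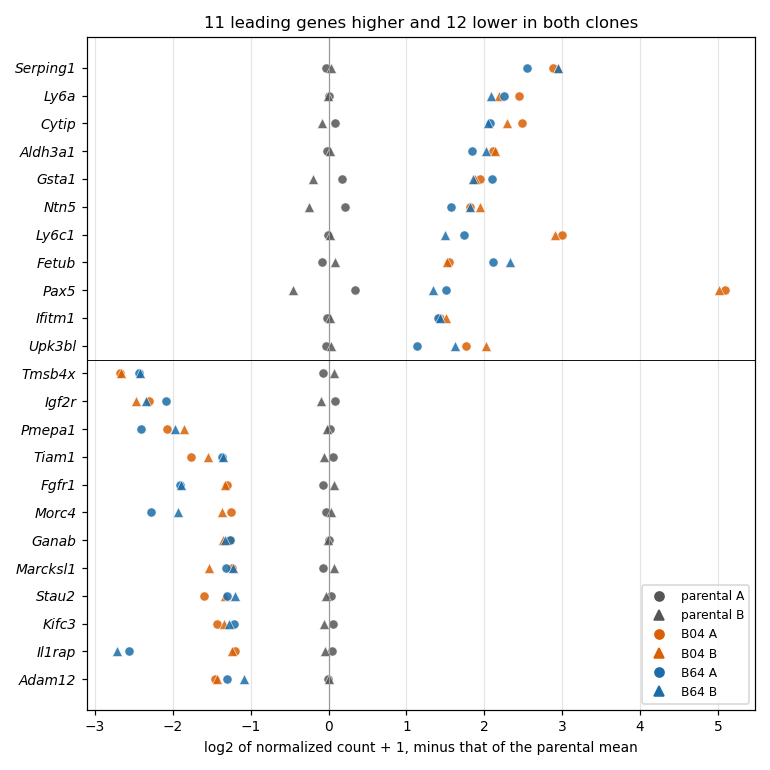
Points show each library's log2 normalised count (plus 1) minus that of the parental mean, on the x axis, for 11 leading genes higher and 12 lower in both clones (circle, replicate A; triangle, replicate B). Clone points of Serping1, Ly6a, Tmsb4x and Igf2r cluster together away from 0, while B04 and B64 points separate for Pax5, Ly6c1 and Il1rap.

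Antigen processing was among the functions with many shared rises. Of 21 measured genes for MHC class I presentation, 13 lay above and 1 below the parental line. By the pooled test 8 rose (38.1%, against 3.97% of all described genes). In that test, by edgeR or at an unadjusted p under 0.05 in the pooled DESeq2 test 0 fell. With the lines as groups DESeq2 called 14 higher and 2 lower. The list's median log2 fold change was 0.37 against 0.00 for all genes. The immunoproteasome subunit Psmb9 was at 119.2 and 96.3 in parental A and B, against 268.1 and 309.4 for B04 and 295.6 and 236.6 for B64 (log2 fold change 1.36 ± 0.21, DESeq2 adjusted p = 7.77e-09, edgeR adjusted p = 0.0121). Its partner Psmb8 was at 215.6 and 204.8, 533.5 and 567.0, and 399.8 and 386.9 (1.17 ± 0.21). Tapbp (tapasin), which bridges TAP and class I, was at 1345.1 and 1393.5, 2271.0 and 2001.1, and 2389.9 and 2524.3 (0.75 ± 0.12), and the clones differed by the B64 versus B04 test for Psmb8 and not for Tapbp. The transporter subunits Tap1 (0.48 ± 0.13) and Tap2 (0.43 ± 0.13), the tapasin-related Tapbpl (0.61 ± 0.13), the immunoproteasome subunit Psmb10 (0.37 ± 0.12) and the proteasome activator subunit Psme2 (0.31 ± 0.09) rose less. Psmb9, Psmb8, Psmb10 and Psme2 were also the 4 called members of the 47 measured proteasome genes.

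These class I calls were sensitive to the test and to position. The edgeR test called 4 of the list, a fit with a term for fragment length 3, a fit without parental A 3 and one without parental B 4. Psmb9, Tap1, Psmb8 and Tap2 are neighbours on chromosome 17 (34181987 to 34216321), in a stretch of 6 genes of which 5 were called, and Psmb9 and Tap1 overlap, so that shared reads could be divided between them. The wider interferon response moved differently in the clones: of 66 measured genes, 8 lay above and 1 below, and only Ifitm1 and the GTPase gene Iigp1 were called. Its median log2 fold change was 0.22, made of -0.15 in B04 and 0.59 in B64. Among 22 genes for checkpoint ligands and surface proteins that face T cells, 2 rose and 1 fell. Ptgs1 (COX-1, prostaglandin synthesis) rose from 2770.3 and 2664.5 to between 3957.5 and 4348.4 (0.63 ± 0.09, DESeq2 adjusted p = 5.59e-11). Cd47, the "don't eat me" ligand of SIRPA, rose by 0.30 ± 0.09. Cd44, the hyaluronan receptor, fell by 0.47 on the log2 scale, with an SE of 0.16. Neither Cd47 nor Cd44 was called by edgeR or with the fragment-length term. In each of those 2 fits 1 of the list rose and 0 fell.

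Of 33 measured NRF2 targets and glutathione or thioredoxin genes, 17 lay above and 1 below, with a median log2 fold change of 0.24. By the pooled test 12 rose (36.4%), and 0 fell by it or edgeR (1 at an unadjusted p under 0.05 in the pooled DESeq2 test). With the lines as groups DESeq2 called 18 higher and 2 lower. After Gsta1, Gstm1 was at 561.9 and 573.3 in the parental line, 2020.2 and 1856.6 in B04 and 1250.5 and 1240.6 in B64 (1.49 ± 0.22, DESeq2 adjusted p = 1.81e-09), and Gstm2 at 1075.1 and 1093.3, 1911.7 and 1724.3, and 2207.6 and 2121.6 (0.88 ± 0.13). These mu-class transferases are near neighbours in sequence and can share reads, and Gstm1 was higher in B04 than in B64. Gsta4 went from 180.3 and 188.9 to between 332.2 and 382.1 (0.95 ± 0.16). The ferritin heavy chain Fth1, which stores iron, went from 58830.0 and 65284.5 to between 91107.4 and 101119.2 (0.63 ± 0.09), and the light chain Ftl1 rose by 0.37 ± 0.11. The quinone reductase Nqo1 (1.19 ± 0.37), the microsomal transferase Mgst3 (0.98 ± 0.26), the sulfiredoxin Srxn1 (0.51 ± 0.09), the NADPH source G6pdx (0.45 ± 0.09), the glutathione reductase Gsr (0.44 ± 0.13) and Gclc, the rate-limiting subunit of glutathione synthesis (0.32 ± 0.08), completed the 12. The edgeR test called 8 of the list, the fragment-length fit 8, and fits without 1 library 6 to 13, the 6 being those without either parental library.

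Other detoxifying enzymes rose with them. Of 22 measured cytochrome P450, UDP-glucuronosyltransferase and carboxylesterase-related genes, 6 rose and 1 fell, and the median was 0.54, the highest of the function lists with at least 20 measured genes. Ephx1, the microsomal epoxide hydrolase, went from 1984.2 and 1960.3 to 4937.8 and 4889.9 in B04 and 3574.7 and 3374.8 in B64 (log2 fold change 1.09 ± 0.18, DESeq2 adjusted p = 1.12e-07). Cyp2c55 went from 473.2 and 415.3 to between 642.2 and 1004.6 (0.93 ± 0.21) and Cyp2ab1 from 117.3 and 111.3 to between 185.3 and 277.6 (0.98 ± 0.23), and Ces1f, Ugt1a6a and the P450 reductase Por were the others. Of 22 aldehyde dehydrogenases and aldo-keto reductases, Aldh3a1, Aldh3b1 (0.94 ± 0.29), Aldh7a1 (0.65 ± 0.16) and Aldh9a1 (0.31 ± 0.09) rose. Of that list 0 fell by the pooled test, by edgeR or at an unadjusted p under 0.05 in the pooled DESeq2 test. With the lines as groups DESeq2 called 6 higher and 3 lower. Of 25 ABC transporters, 4 rose and 1 fell. The multidrug efflux pump genes Abcb1b, from 6184.5 and 5894.9 to between 7988.3 and 8838.1 (0.47 ± 0.09, DESeq2 adjusted p = 3.04e-06), and Abcb1a (0.39 ± 0.10) were among the 4 and are close paralogues. Of 33 peroxisome genes, Cat (catalase, 0.49 ± 0.11), Crat and Phyh were among the 4 that rose, and Abcd4 fell. The rises called in the P450, aldehyde, ABC and peroxisome lists became 2, 1, 3 and 2 with edgeR, 2, 2, 2 and 1 with the fragment-length term, 2, 1, 1 and 0 without parental A, and 1, 1, 1 and 0 without parental B.

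Cholesterol synthesis was the third function with many rises. Of 23 measured genes, 14 lay above and 1 below, and the median was 0.35, 0.42 in B04 and 0.25 in B64. By the pooled test 9 rose (39.1%), and 0 fell by it or edgeR (1 at an unadjusted p under 0.05 in the pooled DESeq2 test). With the lines as groups DESeq2 called 16 higher and 1 lower. Acat2, which joins acetyl-CoA units at the start of the pathway, was at 1124.7 and 1161.6 in the parental line, 2382.3 and 2395.1 in B04 and 1520.0 and 1593.9 in B64 (log2 fold change 0.79 ± 0.21, DESeq2 adjusted p = 0.00503, edgeR adjusted p = 0.109). Hmgcs1, whose promoter is printed above, was at 1414.7 and 1266.3, 2294.7 and 2176.2, and 1620.8 and 1715.8 (0.54 ± 0.17). B04 lay above B64 for both. Further along the pathway, Idi1 rose by 0.55 ± 0.14, Fdps by 0.35 ± 0.10, Fdft1 by 0.33 ± 0.09, Sqle by 0.58 ± 0.18, Nsdhl by 0.53 ± 0.14 and Ebp by 0.54 ± 0.17. The calls depended on the fit: edgeR called 1 of the list, fits without either parental library 0, the fit with fragment length 4 and the fit with effective lengths 3. The stearoyl-CoA desaturases Scd1, from 13263.7 and 12302.3 to between 17216.4 and 18932.5 (0.50 ± 0.08), and Scd2 (0.39 ± 0.10) were the called members of 17 fatty acid synthesis genes.

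**Figure D2:**
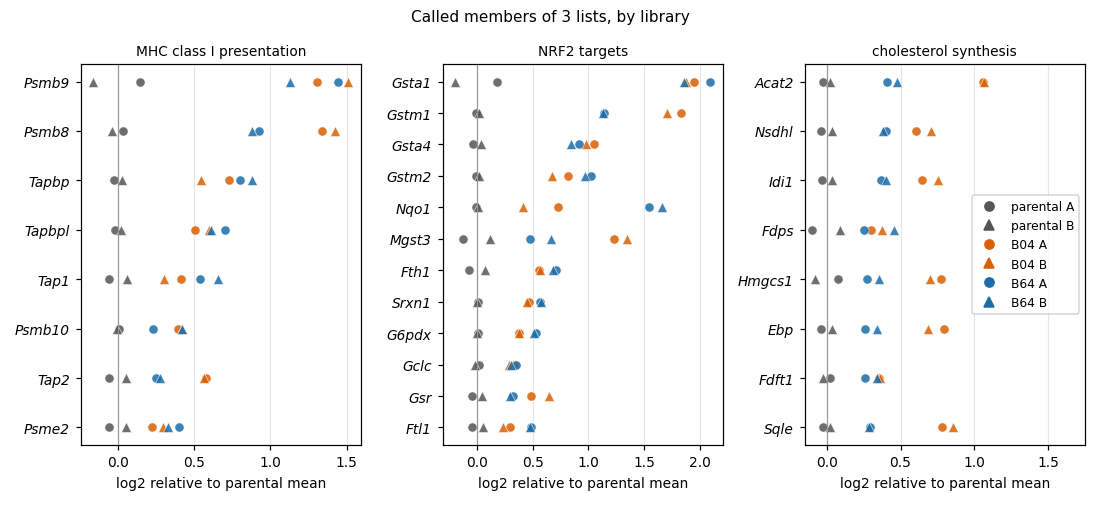
Each panel plots called members of a list (all 8 for class I presentation, all 12 for NRF2 targets, 8 of the 9 for cholesterol synthesis), with each library's log2 normalised count relative to the parental mean on the x axis. All clone points lie to the right of all parental points, as the rule requires, and for Acat2, Gstm1 and Psmb8 the B04 points lie to the right of the B64 points.

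Changes of the TGF-beta and BMP pathway ran both ways. Of 47 measured genes, 3 rose and 7 fell (14.9%, against 2.93% of all described genes), with a median of -0.07. The risers were the BMP target genes Id2, from 43.9 and 58.0 to between 97.4 and 124.1 (1.15 ± 0.27), Id3 (1.06 ± 0.29) and Id1, from 225.1 and 239.4 to between 321.7 and 414.1 (0.70 ± 0.17). Besides Pmepa1, the inhibitory SMAD gene Smad7 fell from 868.1 and 859.5 to between 481.5 and 533.5 (-0.76 ± 0.11, DESeq2 adjusted p = 4.64e-09), and Skil (SnoN, a SMAD repressor) from 1065.6 and 977.3 to between 522.6 and 689.7 (-0.78 ± 0.14). The activin subunit gene Inhba, from 947.3 and 863.2 to between 419.5 and 568.6 (-0.86 ± 0.17), the follistatin-like Fstl1 (-1.47 ± 0.45), the procollagen protease Bmp1 (-0.61 ± 0.20) and the latent TGF-beta binder Ltbp1 (-0.33 ± 0.08) also fell. The genes that fell here thus include ligand, ligand-binding and inhibitor genes. The edgeR test called 2 higher and 5 lower, and without parental A 0 higher and 3 lower were called.

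Receptor tyrosine kinases, YAP/TEAD targets and basement membrane genes each held more falls than rises by DESeq2, with medians of 0.04, -0.13 and -0.05. The kinase list as a whole was not lower: 11 of 20 had a positive log2 fold change. At an unadjusted DESeq2 p under 0.05, 3 kinases were higher and 4 lower. Of 20 receptor tyrosine kinases, Fgfr1, Ptk7, from 788.0 and 851.1 to between 364.7 and 454.0 (-1.0 ± 0.14), and Axl (-0.34 ± 0.10) fell. Epha8, with a mean normalised count under 100, rose (2.62 ± 0.69). By edgeR 0 of the kinases rose, and with the fragment-length term 1 rose. Of 25 YAP/TEAD targets, 4 fell, namely Fstl1, Ankrd1, from 2347.7 and 2415.8 to between 1424.9 and 1713.1 (-0.60 ± 0.11), Axl and Lats2 (-0.30 ± 0.10). Of the same list 0 rose by the pooled test or edgeR and 1 at an unadjusted p under 0.05 in the pooled DESeq2 test. With the lines as groups DESeq2 called 3 of it higher and 11 lower. Of 34 genes for basement membrane and matrix glycoproteins, 5 fell and Sparc rose (0.36 ± 0.11). Thrombospondin 1, Thbs1, was at 317.7 and 287.1, 146.8 and 170.0, and 69.1 and 58.9 (-1.44 ± 0.40), and nidogen, Nid1, at 869.0 and 815.5, 517.1 and 536.4, and 231.1 and 302.8 (-1.08 ± 0.31), both lowest in B64. The collagen gene Col8a1 fell from 3080.3 and 2885.3 to between 1508.5 and 1731.6 (-0.91 ± 0.10, DESeq2 adjusted p = 1.79e-16), the only called one of 17 collagens. The fibroblast marker sum was also lowest in B64, as given above, and its part in the lower B64 values was not tested. The falls called by edgeR were 2 for the kinases, 1 for the YAP/TEAD list and 2 for the basement membrane list, and without parental A they were 2, 1 and 1.

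Matrix-modifying enzymes were split, with 6 of 39 higher and 4 lower, or 2 and 2 by edgeR. Tgm2, the transglutaminase that crosslinks matrix proteins, rose from 1335.5 and 1284.1 to 2784.5 and 2659.7 in B04 and 2777.3 and 2811.3 in B64, all 4 clone libraries within a narrow band (1.07 ± 0.08, DESeq2 adjusted p = 6.68e-34). Mmp28 rose too (1.20 ± 0.20), while the ADAMTS protease gene Adamts14 fell from 498.0 and 523.7 to between 181.5 and 239.7 (-1.26 ± 0.17) and Mmp14, the membrane collagenase, was lower (-0.68 ± 0.23). Of 29 WNT pathway genes, the inhibitor Dkk2 (104.0 and 71.1 against at most 9.1 in the clones), the nuclear factor Lef1 (-1.22 ± 0.23) and the receptor Fzd6 (-0.31 ± 0.10) fell. Of that list 0 rose by the pooled test or edgeR (1 at an unadjusted p under 0.05 in the pooled DESeq2 test). With the lines as groups DESeq2 called 2 higher and 5 lower. Arhgap45, a GTPase-activating protein, rose from 374.9 and 420.9 to between 986.8 and 1059.8 (1.36 ± 0.11). Of 71 glycosyltransferases and sulfotransferases, 6 fell and 2 rose. Of the 6 falls, 2 lay in the first 100 Mb of chromosome 1, where 4 of the list were measured. Another, B3gat3, lay in the block around Ganab on chromosome 19, and both places are described below. Mgat4a, which branches N-glycans, was at 185.1 and 152.4 in the parental line and between 5.5 and 15.8 in the clones (-4.03 ± 0.40, DESeq2 adjusted p = 2.27e-20), and the chondroitin polymerising factor Chpf went from 2171.2 and 2324.1 to between 1460.7 and 1504.2 (-0.60 ± 0.09).

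Of 39 genes for apoptosis and caspases, 5 rose and 1 fell. By edgeR 3 of the list rose and 0 fell, and with the fragment-length term 2 rose and 1 fell. The pyroptosis pore Gsdmd went from 437.9 and 409.6 to 920.3 and 998.5 in B04 and 719.2 and 698.1 in B64 (0.98 ± 0.18, DESeq2 adjusted p = 7.82e-06), and Casp1, the protease that cleaves it, went from 183.2 and 220.7 to between 280.0 and 352.3 (0.58 ± 0.18, DESeq2 adjusted p = 0.0298, edgeR adjusted p = 0.0869). The BH3-only killer Bbc3 (PUMA, 0.45 ± 0.10) and the caspase inhibitor Xiap (0.42 ± 0.12) also rose, and the TRAIL receptor Tnfrsf10b was lower (-0.38 ± 0.12). The 5 risers thus include killers and an inhibitor.

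Ribosome genes held a higher share of called falls than all described genes, with medians near 0. Of 80 cytosolic ribosomal protein genes, whose reads can be shared with many pseudogenes, 24 lay below and 1 above, and 7 fell (8.75%, against 2.93% of all described genes) and 1 rose, with a median of -0.08. Of 68 ribosome biogenesis genes, 26 lay below and 4 above, 8 fell (11.8%) and 1 rose, with a median of -0.11. The edgeR test called 3 falls in each list, and without parental A 2 and 1 were called. Of the 8 biogenesis genes, Imp4, Nop58, Rrs1, Wdr12, Wdr75 and Ncl were all 6 measured members of the list on the first 100 Mb of chromosome 1, a segment described below. Wdr74 lies in the block around Ganab on chromosome 19, also described below. Off chromosome 1, 2 of 61 biogenesis genes fell, against 2.46% of all described genes there. Of 48 mitosis genes, 15 lay above and 0 below, but only Kif20a, Pttg1 and Nusap1 rose by the pooled test. The median was 0.27 in B04 and -0.03 in B64, and DESeq2 with the lines as groups called 18 higher and 0 lower. Among 55 DNA replication genes, Orc2, also in the first 100 Mb of chromosome 1, fell and 0 rose by the pooled test or edgeR. At an unadjusted p under 0.05 in the pooled DESeq2 test 9 of the 55 rose. With the lines as groups DESeq2 called 22 of them higher and 2 lower. Their median was 0.30 in B04 and -0.02 in B64. No member was called by the pooled test or edgeR among 45 lysosome, 24 unfolded protein response or 23 cyclin, CDK and inhibitor genes. Of these, 4, 2 and 5 had an unadjusted p under 0.05 in the pooled DESeq2 test. With the lines as groups DESeq2 called 9 lysosome genes higher and 6 lower, and 0 and 7, and 5 and 2, in the other lists. Of 325 KRAB and other zinc finger genes 2 rose and 5 fell, and of 133 chromatin modifiers 2 rose and 1 fell, both shares under the background.

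**Figure D3:**
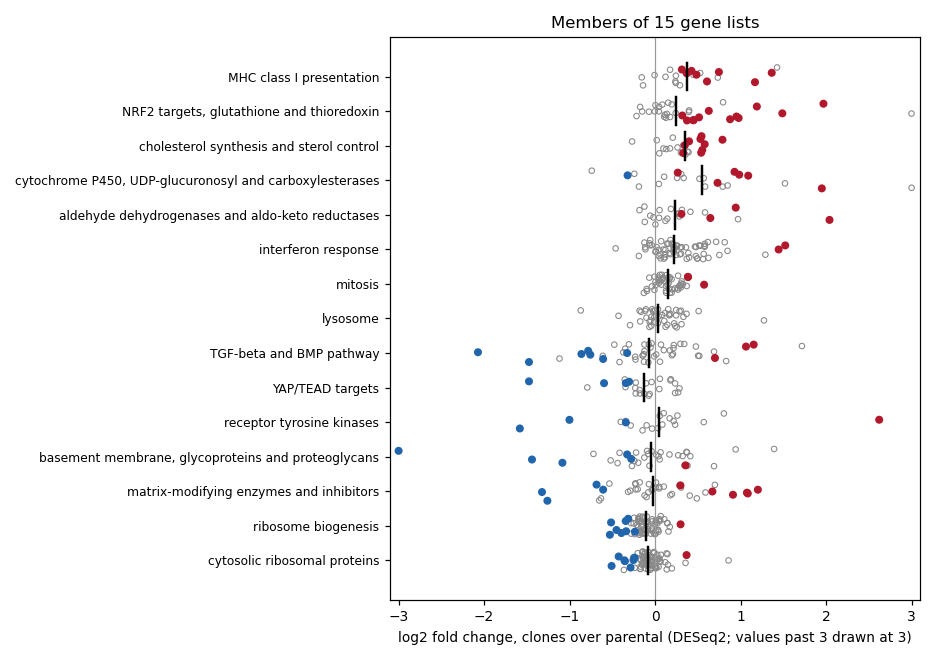
Each point is a measured member of 1 of 15 gene lists, with its DESeq2 log2 fold change of clones over parental on the x axis (filled red, called higher; filled blue, called lower; open, not called; bar, list median; values past 3 drawn at 3). The lists for class I presentation, NRF2 targets and cholesterol synthesis have their medians right of 0 (0.37, 0.24 and 0.35) and no blue point.

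Members were unevenly placed along the genome, a pattern singled out after the values were seen. On chromosome 1, 213 of 673 described genes (31.6%) lay below the parental line and 72 fell (10.7%, against 2.93% of all). They gathered in its first 100 Mb, where 172 of 326 genes (52.8%) lay below and 12 (3.68%) above, 70 fell, and the median log2 fold change was -0.24, with -0.25 in B04 and -0.24 in B64. In the next 100 Mb 41 of 347 genes (11.8%) lay below, 2 fell and the median was 0.02. That segment thus held 70 of the 341 genes called lower (20.5%). Without chromosome 1, 2.46% of 10955 genes were called lower. Taking only long-fragment libraries, the median over the segment was -0.23 in B04 A. A run of 19 consecutive described genes from Cnot11 to Ercc5 (39534992 to 44181260), which includes the IL-1 family receptor genes Il1r1, Il1rl1 and Il18rap, lay below the parental line in all 4 clone libraries, the longest run found.

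The opposite was seen on chromosome 18 and on the X chromosome. Between 20 and 60 Mb of chromosome 18, 76 of 158 genes (48.1%) lay above, 22 rose and the median was 0.20, while over the rest of that chromosome 10.1% lay above and the median was -0.05. In the first 40 Mb of the X chromosome 46 of 80 genes (57.5%) lay above and 1 below, 19 rose and the median was 0.30, with 0.27 in B04 and 0.30 in B64, while over the rest of the X chromosome the median was -0.03. On chromosome 15, 144 of 469 genes (30.7%) lay above and 46 rose, more so in B04 (median 0.19) than in B64 (0.07). Across 126 windows of 20 Mb with at least 30 genes, 13 had a median at least 0.15 from 0, and 5 of the 6 low ones were those of the first 100 Mb of chromosome 1. DNA copy number was not measured here, so a change in copy number and a change in transcription cannot be told apart, and a mixed parental line gives only its average.

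**Figure D4:**
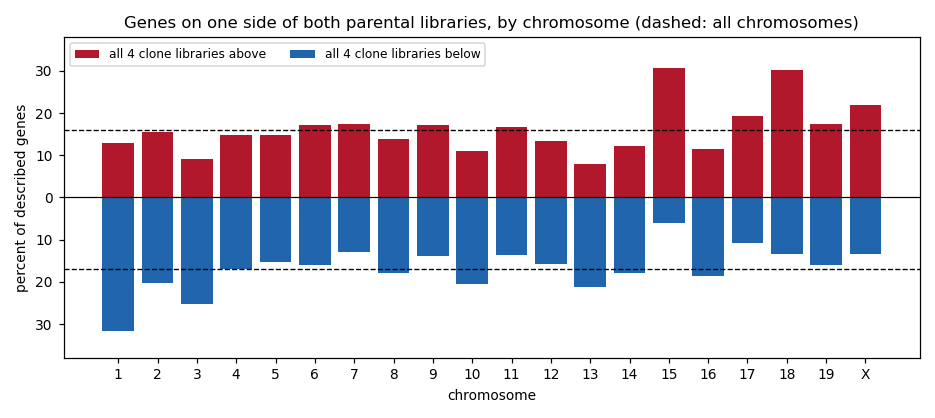
Bars give, for each chromosome on the x axis, the percent of described genes with all 4 clone libraries above (red, upward) or below (blue, downward) both parental libraries, and dashed lines give the percent over all chromosomes. Chromosome 1 has the longest downward bar (31.6%), and chromosomes 15 and 18 have the longest upward bars (30.7% and 30.3%).

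Smaller blocks held some of the largest changes, and they too were chosen after their values were seen. Around Ganab on chromosome 19 (8160165 to 8978479), 20 of 25 described genes lay below the parental line, 0 above, and 16 fell, with a median of -0.53, -0.65 in B04 and -0.42 in B64. Ganab itself, the catalytic subunit of ER glucosidase II that trims N-glycans, was at 3376.0 and 3367.9 in the parental line, 1398.2 and 1317.1 in B04 and 1405.6 and 1338.4 in B64, the same in both clones within the spread of their libraries (log2 fold change -1.30 ± 0.09, DESeq2 adjusted p = 1.6e-49). Its neighbour Ints5, an Integrator subunit, was at 626.7 and 608.9, 286.4 and 324.7, and 287.7 and 278.6, and Ubxn1, a ubiquitin-binding adaptor, at 1430.0 and 1604.0, 708.7 and 797.0, and 798.5 and 737.0. The elongation factor gene Eef1g went from 14187.1 and 14776.1 to between 8145.5 and 9764.6, and the NuRD subunit gene Mta2 from 3500.0 and 3512.8 to between 2302.0 and 2703.0. Slc3a2, in the same stretch, was at 14109.9 and 14421.6, 14391.2 and 14199.4, and 12607.6 and 12631.0, and did not meet the rule.

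**Figure D5:**
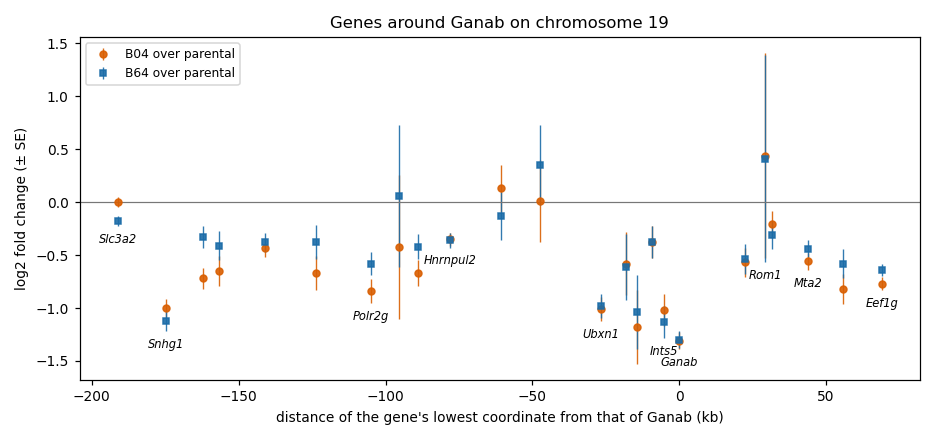
Points give the log2 fold change of each clone over parental (y axis, ± SE) for described genes around Ganab, by distance in kb from it (x axis). Most genes on both sides of Ganab (-1.31 in B04 and -1.30 in B64) lie below 0 in both clones, while Slc3a2, Zbtb3, Bscl2, Lrrn4cl and Rom1 have a clone at or above 0, and the far gene Slc22a29 is not drawn.

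On chromosome 15 (74702301 to 75921560), 12 of 16 genes around Ly6a lay above, 0 below and 7 rose, with a median of 0.55, 0.82 in B04 and 0.32 in B64. A run of 8 neighbours from Jrk to Ly6c2 all lay above. Ly6e, an interferon-induced member of the family, went from 15014.2 and 15420.5 to between 19040.0 and 21091.4, Lynx1, a toxin-like modulator of nicotinic receptors, from 224.2 and 246.9 to 501.6 and 499.8 in B04 and 391.9 and 379.5 in B64, and Slurp1, a secreted relative, from 4.8 and 3.7 to 63.8 and 66.2 in B04 and 14.7 and 28.4 in B64. Gsdmd lies in the same stretch.

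Some parental transcripts were at the floor in the clones. In 101 members below the parental line, each of the 4 clone libraries had at most 3 counts and each parental library had more than 3. Of these, 35 fell by the test. Folds against such libraries are lower bounds computed from 3 counts a library, and cover counting error only. Ank2 (ankyrin B, a membrane scaffold) had 169 and 183 counts in parental A and B and 0, 0, 2 and 2 in the clones, at least 53.8-fold lower. Dapk1, a death-associated kinase, had 146 and 171 counts against 0, 0, 0 and 1, at least 48.5-fold lower. Neither had more than 2 counts in a clone library. The kinase gene Pak3, the laminin gene Lama2, the neural crest factor gene Pax3 and the Rac GTPase-activating Arhgap15 were at least 24.5-fold, 18.4-fold, 17.5-fold and 14.4-fold lower, with at most 1 count in any clone library. Cdx2, the intestinal homeobox factor, had 35 and 24 counts in parental A and B and 0 in all 4 clone libraries, at least 9.05-fold lower. In the other direction, 56 members above the parental line had at most 3 counts in each parental library and more than 3 in every clone library. Of these, 7 rose, among them Ly6c2, with 2 and 3 counts against 43, 68, 37 and 21, at least 15.2-fold higher.

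The B64 versus B04 test describes how the clones differed within the shared changes. Of the 803 genes called and on 1 side, 169 (21.0%) also differed between B64 and B04, with a background of 3077 of the 11628 described genes (26.5%). The rule and the pooled call use the same 4 clone libraries and favour genes whose clones are alike, so nothing is read from these shares. The difference did not pass the test for 634, which does not show that the clones were equal. Of the 169, 113 rose and 56 fell against the parental line. In B64 minus B04 terms, Pax5 differed by -3.68, Il1rap by -1.44, Ly6c1 by -1.34 and Thbs1 by -1.31 on the log2 scale. By contrast Tmsb4x differed by 0.24 ± 0.13, Igf2r by 0.17 ± 0.17, Serping1 by -0.15 ± 0.25 and Ly6a by -0.16 ± 0.13 (SE), none past the threshold.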

How the data were processed

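Poly(A)-selected mRNA of 6 CT26 libraries was measured, 2 each for the parental line, B04 and B64, with groups and replicate letters taken from the sample titles. The authors aligned paired reads to mm10 with STAR and quantified genes with RSEM. The deposited values are the expected count of each gene, the authors' RSEM estimate, which divides reads matching several genes, and TPM, which the authors' RSEM scaled by effective length and library total. FPKM was not used here. The annotation release behind the tables is not given in the sources used here. Symbols, biotypes and coordinates (1-based) are from GENCODE M21 on GRCm38, the same assembly as mm10.

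Rounded expected counts entered DESeq2 (1.42.0, under R 4.3.3; Wald test, no shrinkage, Benjamini-Hochberg adjusted p under 0.05), the tool of the study's methods, with the 4 clone libraries as 1 group against the 2 parental libraries. A second fit with the line as its term gave each clone over parental and B64 versus B04. The comparisons of clones with the parental line share the parental libraries. Alternatives were edgeR (4.0.16) with TMM factors, limma (3.58.1) on log2(TPM + 1) and log2(TPM + 0.1), other filters, a replicate block, a fragment-length term, effective lengths, thinning, and leaving out each library. The tests were tried on counts simulated for 4 libraries against 2 without a difference between the clones. There both DESeq2 and edgeR made more false calls than their threshold allows, DESeq2 the more of them. The simulation did not model libraries that come from 2 differing clones. Log2 fold changes stand with their standard error (SE), and n is 4 clone and 2 parental libraries throughout.

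Named genes were, among called members with a mean normalised count of at least 100, the 12 higher and 12 lower ones with the largest smaller change of either clone, and the first 3 of each of 68 gene lists with at least 3 such genes. Other symbols are called members of a list that is described, or were chosen after their values were seen, and a few of the named or called genes are not reported here. The members and lists were chosen with earlier results of these data known. Motif letters for antioxidant, sterol and interferon elements were added after seeing the data.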

Additional observations from a re-analysis of the deposited data

Results flagged for a closer look

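Among the named genes reported here, 33 that moved to the same side in both clones also differed between B64 and B04 by the DESeq2 test. The values below are B64 minus B04 on the log2 scale, both clones being set against the same parental libraries.

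Genes above the parental line in both clones and higher in B04 were Pax5 (-3.68), Ly6c1 (-1.34), Id3 (-0.67), Gstm1 (-0.64), Acat2 (-0.62), Clic5 (-0.60), Cyp2c55 (-0.53), Kcnab2 (-0.52), Ephx1 (-0.50), Psmb8 (-0.48), Gsdmd (-0.44), Krt80 (-0.41), Mxi1 (-0.37), Igfbp4 (-0.36), Kif20a (-0.32), St3gal5 (-0.31) and Idi1 (-0.31). Those higher in B64 were Pcdh7 (0.80), Arhgap6 (0.58), Ddit4 (0.37) and Ftl1 (0.22).

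Genes below the parental line in both clones and lower in B64 were Il1rap (-1.44), Thbs1 (-1.31), Nid1 (-0.98), Morc4 (-0.80), Nrg1 (-0.75), Fgfr1 (-0.59), Efnb2 (-0.54) and Axl (-0.18). Those lower in B04 were Tnfrsf12a (0.47), Cd44 (0.43), Wdr74 (0.39) and Phgdh (0.15).

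Psmb10 was flagged for a single library: B64 A was at 666.0 normalised counts against 746.1, 760.4 and 760.1 in the other clone libraries, a gap of 0.848 of their range. Chance flags about 1 in 20 groups of 4.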

How the results depend on the processing

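The main comparison called 852 genes. The count was 2525 with lines as groups, 364 with edgeR, 189 and 199 with limma on log2(TPM + 1) and log2(TPM + 0.1), 280 with a fragment-length term and 486 at an adjusted p under 0.01, and it ranged from 197 (without parental A) to 835 when 1 library was left out. A replicate block by letter gave 539. Deviations of same-lettered libraries correlated by 0.11, 0.01 and -0.05 across 11996 genes, so the letters were not treated as pairs. TMM factors, other filters, effective lengths and thinning gave 740 to 914. B64 versus B04 called 3116 genes, 1623 with the fragment-length term and 1681 to 2755 without 1 library. The 3827 described genes on 1 side became 1574 when at least 1.1-fold apart, and 4240 to 5859 without 1 library, where fewer libraries have to separate. Of 113 named genes, 53 were called in every fit that left out 1 library and 39 in every alternative run. Cldn12 changed direction, to 0.08 under limma on either TPM scale and 0.03 with effective lengths, and the cause was not tested. The parental line and B64 differ in fragment length throughout, so line and fragment length cannot be told apart except through the B04 libraries.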
